A study of Mus musculus with 6 samples.

Results

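Genes of the 2-cell state were followed in mouse embryonic stem cells of the E14 line after knockdown of Tdg, the gene of thymine DNA glycosylase. The set holds 10 genes: Duxf3, Zscan4c, Zscan4d, Zscan4f, Zfp352, Ubtfl1, Tcstv1, Tcstv3, Sp110 and Tmem92. They were chosen by name with earlier results of these data known, so their counts beside shares of all rows or genes are descriptions. Every array row whose gene field names one of them was taken, which gave 16 of the 35557 rows. Zfp352, Ubtfl1, Tcstv3 and Tmem92 each have 1 row of their own. Duxf3, Sp110 and the 3 Zscan4 genes appear only on 12 rows that list further genes, and these are described apart. No row names Tcstv1, which was not analysed here.

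The Tdg knockdown group and the control group had 3 arrays each, numbered 1 to 3 in the titles, and RNA was measured on Affymetrix arrays. Both groups were E14 cells kept on 0.1% gelatin in medium with 15% serum and LIF at 1000 units/ml. The protocols describe infection with lentiviral vectors at a multiplicity of 10 and puromycin at 2 ug/ml, started 48 h later, without saying which vector the controls received. The labels give no knockdown sequence and do not say that the replicates were grown apart. The p-values therefore measure only how far these arrays differ, which may be technical. The protocol for RNA extraction names Kdm2b in place of Tdg as the gene knocked down.

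The 2-cell state is named after the mouse embryo at its genome activation. A small and changing share of cells in stem cell cultures passes through a similar state, in which transcripts of that stage appear. Dux, whose gene is now called Duxf3, is a double homeodomain transcription factor that switches on many of these genes, and Zscan4, a nuclear protein with a SCAN domain and zinc fingers, is their best known marker and is linked to telomere maintenance. In bulk RNA, more cells in the state and more RNA per cell in the state cannot be told apart.

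The Zscan4 copies lie close together in the genome and resemble each other, and the array rows list them together. In the RefSeq table of build GRCm38.p6, the 250 bases before the annotated start were read for 3 of them. Over the part where the windows align, Zscan4c and Zscan4d were identical at 232 of 239 bases, and Zscan4c and Zscan4f at 226 of 227. The annotated starts differ a little between the copies, so the windows are offset. The windows run from 5′ to 3′ and let the copies be compared. In Zscan4d, at chr7:11166149-11166398 on the minus strand, and in Zscan4f, at chr7:11397665-11397914 on the plus strand, capitals mark bases that differ from Zscan4c. In Zscan4c, at chr7:11005495-11005744 on the plus strand, they mark a match to a motif described further on. That match is on the strand opposite to the printed one, so the printed letters are its reverse complement.
Zscan4c: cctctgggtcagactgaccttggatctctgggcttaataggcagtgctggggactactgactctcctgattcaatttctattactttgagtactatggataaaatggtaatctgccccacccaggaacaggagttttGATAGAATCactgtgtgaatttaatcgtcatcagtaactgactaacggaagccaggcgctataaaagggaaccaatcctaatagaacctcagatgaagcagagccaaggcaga
Zscan4d: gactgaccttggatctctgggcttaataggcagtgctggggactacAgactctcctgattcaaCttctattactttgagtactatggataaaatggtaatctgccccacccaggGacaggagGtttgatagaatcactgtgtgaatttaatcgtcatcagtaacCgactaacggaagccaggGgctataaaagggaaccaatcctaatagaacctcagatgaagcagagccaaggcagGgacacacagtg
Zscan4f: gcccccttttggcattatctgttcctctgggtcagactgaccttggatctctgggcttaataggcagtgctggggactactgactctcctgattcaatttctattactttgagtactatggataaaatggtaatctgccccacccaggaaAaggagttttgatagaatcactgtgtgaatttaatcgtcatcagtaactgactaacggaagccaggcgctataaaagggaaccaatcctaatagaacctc

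Before the start of Zfp352 and of one of the 2 annotated starts of Sp110, the same run of letters recurs, and these windows are shown for that reason. Capitals mark AACACACCTTTAATC, which stands 3 times in each. The Zfp352 window is chr4:90218570-90218819 on the plus strand and the Sp110 window is chr1:85603892-85604141 on the minus strand. In Duxf3, at chr10:58233090-58233339 on the minus strand, capitals mark GATTGAATC, a match to GATTNNATC.
Zfp352: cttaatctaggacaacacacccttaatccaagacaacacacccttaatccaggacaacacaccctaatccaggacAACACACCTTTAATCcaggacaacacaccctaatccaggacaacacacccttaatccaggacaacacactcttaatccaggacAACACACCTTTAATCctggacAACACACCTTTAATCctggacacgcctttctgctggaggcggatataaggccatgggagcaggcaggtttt
Sp110: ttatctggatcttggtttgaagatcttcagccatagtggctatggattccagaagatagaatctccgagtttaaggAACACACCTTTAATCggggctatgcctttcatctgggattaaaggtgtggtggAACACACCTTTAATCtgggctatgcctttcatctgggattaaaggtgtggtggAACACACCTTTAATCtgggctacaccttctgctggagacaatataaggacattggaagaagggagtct
Duxf3: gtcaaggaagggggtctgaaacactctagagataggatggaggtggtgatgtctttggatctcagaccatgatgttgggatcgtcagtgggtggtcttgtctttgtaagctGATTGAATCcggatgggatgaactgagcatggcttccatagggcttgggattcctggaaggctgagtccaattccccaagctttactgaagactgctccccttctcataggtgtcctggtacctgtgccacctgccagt

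These motifs were counted on both strands in all 32851 RefSeq windows, which run from 250 bases before to 50 after each start and hold 7 of the 10 genes. AACACACCTTTAATC, chosen after these sequences had been read as the longest run found at least 3 times in both windows, was found in the windows of 2 of the 7 genes, Zfp352 and Sp110, and in 0.07% of all windows. GATTNNATC, the core letters of the pattern known for Dux, was found for 5 of the 7, namely Duxf3, Sp110, Zscan4c, Zscan4d and Zscan4f. It was found in 1.58% of all windows. The counts of genes take a match in any window of a gene, while the percentages are per window. Sp110 has GATTNNATC in 1 of its 2 windows. The 3 Zscan4 matches lie in the same aligned stretch and are not separate instances. TATAAA was found for the 3 Zscan4 genes, again in a shared stretch, and in 13.6% of all windows. In the printed windows no match overlaps a match to another of these motifs. The 8 windows of these genes held 0 to 5 CpG pairs, against a median of 7 and a lower quartile of 3 over all windows. Only Ubtfl1 (0) and Zfp352 (2) lay below that quartile. A match is a match of letters only, and binding was not measured.

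Tdg itself was measured on 4 rows that it shares with its pseudogene Tdg-ps2. Their mean was 8.11 ± 0.16 in knockdown arrays and 11.14 ± 0.05 in controls (log2 signal, SD, n = 3 each), so that it fell by 3.03 (difference -3.03) to 12.2% of the control signal (limma on the mean of the rows, adjusted p 8.79e-05). An exact two-sided permutation test gave p = 0.1, the smallest that 3 arrays against 3 allow. Over all rows the arrays correlated at 0.975 to 0.996. The first principal component, with 58.6% of the variance, placed knockdown replicate 3 at 31.0 and the other arrays between -17.5 and 5.2, so values without that array are given beside the results it moves.

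All 16 rows of the 2-cell genes were higher in Tdg knockdown cells, by 0.13 to 0.57 on the log2 scale with a median of 0.42. On each of them every knockdown array lay above every control array, as was the case for 6.72% of all rows in the table. The differences were modest, at most 1.48-fold, and few passed the test. Of the 4 genes with a row of their own, Tcstv3 and Ubtfl1 rose while Zfp352 (0.57) and Tmem92 (0.44) did not pass. The calls came from limma with Benjamini-Hochberg adjustment over 19938 named genes at 0.05, by which 0.241% of the named genes were called higher and 0.552% lower. For single named genes, every knockdown array lay above every control array in 7.98%. Of the 12 shared rows, tested among all 35557 rows, 0 passed, while 0.00844% of all rows were called higher and 0.0394% lower. At an unadjusted p under 0.05, 9 of those 12 were higher, against 3.76% of all rows. These 9 are the 3 Duxf3 and the 6 Sp110 rows, and 2 of the Sp110 rows hold the same values. Rows of the same gene or family are not separate measurements, which also limits the count over all 16 rows.

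Dux acts upstream of many genes of the set. Its first row, probe set 10369221, read 8.59, 8.71 and 8.75 in knockdown arrays 1 to 3, against 8.13, 8.34 and 8.34 in control arrays 1 to 3 (log2 signal). The groups did not overlap, with a gap of 0.25 between the lowest knockdown and the highest control array. Each of the 3 rows also lists Gm9919, annotated in RefSeq as a noncoding RNA, so the signal may come from either gene. The rows ran together, with differences of 0.41 ± 0.09, 0.42 ± 0.09 and 0.40 ± 0.08 (log2, SE). In the fit of all rows the adjusted p was 0.209 to 0.221, so none of the 3 was called. The 95% interval of probe set 10369221 was 0.20 to 0.63.

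Zscan4 showed the smallest differences of the set on its 3 rows, which list Zscan4a, Zscan4b, Zscan4c, Zscan4d and Zscan4f together. Probe set 10549964 read 12.96, 12.87 and 12.80 in knockdown arrays, against 12.76, 12.74 and 12.61 in controls. Probe set 10549972 read 13.05, 12.96 and 12.89 in knockdown arrays, against 12.85, 12.84 and 12.70 in controls. Probe set 10559978 read 13.27, 13.18 and 13.14 in knockdown arrays, against 13.11, 13.09 and 12.99 in controls. The groups were separate on each row, but only by 0.03 to 0.04. The differences were 0.17 ± 0.08, 0.17 ± 0.08 and 0.13 ± 0.07 (log2, SE), none was called (adjusted p 0.614 to 0.698), and the 95% interval of each included 0, from -0.01 to 0.36 for probe set 10549964. With the replicate block the interval was 0.03 to 0.31 for probe sets 10549964 and 10549972, which leaves out 0. For probe set 10559978 it was -0.01 to 0.27. None was called in that fit either (limma, adjusted p 0.26 to 0.328). These rows are among the brightest of the table, with 98.4% to 99.1% of all rows at a lower mean.

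**Figure D1:**
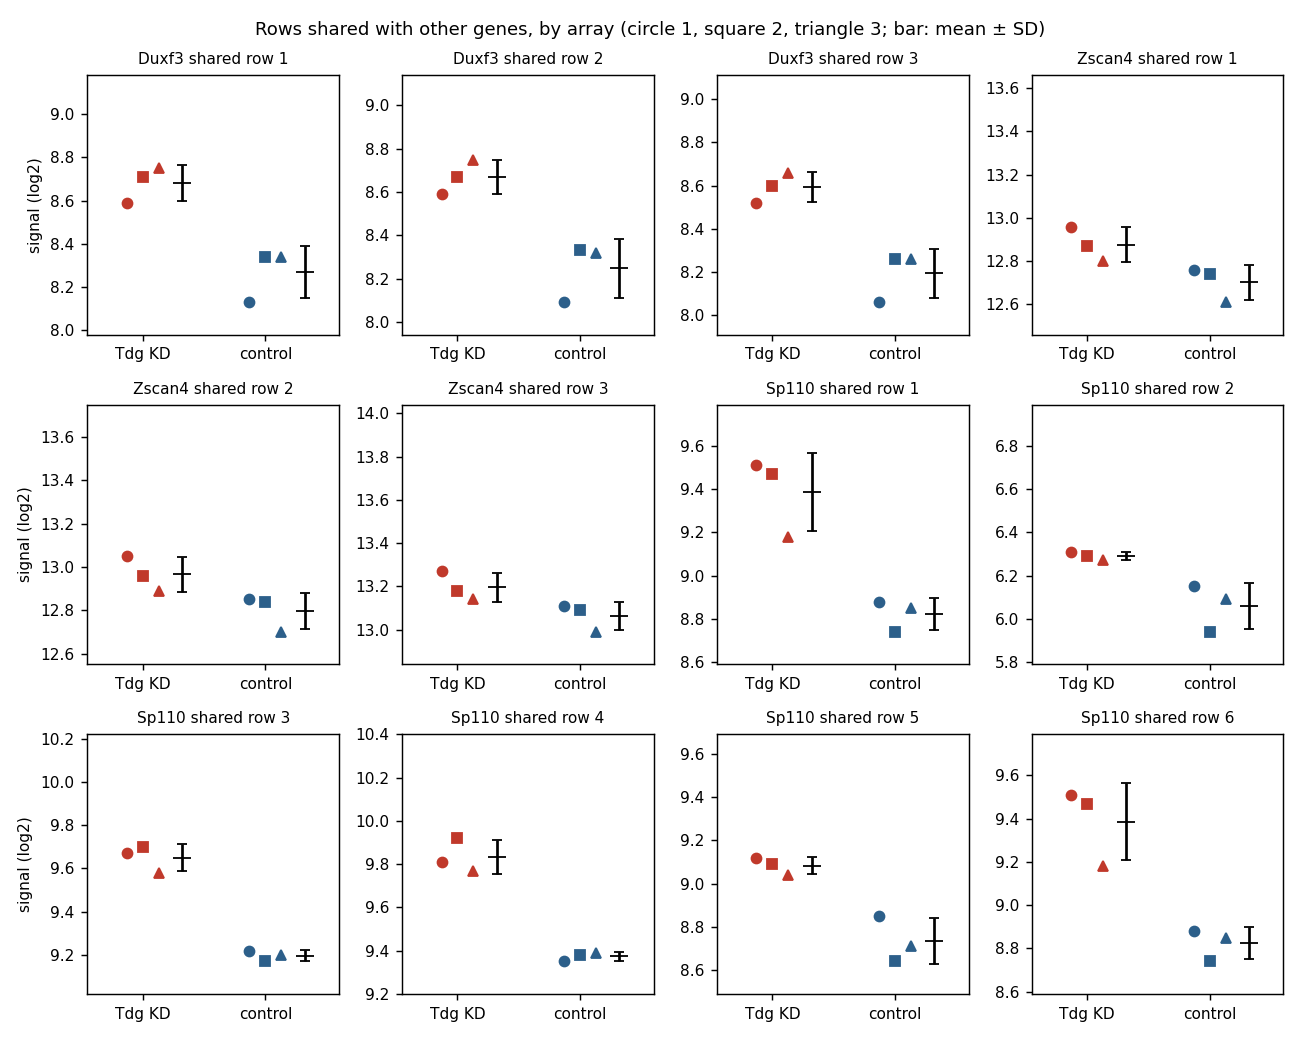
Log2 signal of the 12 rows that Duxf3, Zscan4 and Sp110 share with other genes, numbered in the order of their probe set IDs, with Tdg knockdown (red) left of control (blue), circle, square and triangle for arrays 1, 2 and 3, and bars for the mean ± SD. All panels span 1.2 log2 units; in each the 3 knockdown arrays lie above the 3 controls, by the least on the Zscan4 rows.

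Zfp352, a zinc finger gene that belongs to a retrotransposed family and is transcribed in the early embryo, had the largest difference. It read 9.50, 9.51 and 9.19 in knockdown arrays, against 8.83, 8.90 and 8.77 in controls (probe set 10505914). Knockdown arrays 1 and 2 were nearly equal, and array 3 stood lower but still above every control. The difference was 0.57 ± 0.10 (log2, SE), or 1.48-fold, with an adjusted p of 0.0612, and it passed with the replicate number as a block (adjusted p 0.0237). Without knockdown replicate 3 it was 0.67 with an adjusted p of 0.0104. It did not pass without control replicate 1, 2 or 3 (adjusted p 0.246, 0.253 and 0.240). Nor did it pass without knockdown replicate 1 or 2 (0.248 and 0.162), or when tested among all rows (0.176).

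Ubtfl1, an HMG-box gene related to the ribosomal transcription factor UBF and active in the preimplantation mouse embryo, rose. Its row, probe set 10583359, read 8.48, 8.45 and 8.33 in knockdown arrays, against 7.90, 8.04 and 7.96 in controls. The means were 8.42 ± 0.08 in knockdown cells and 7.97 ± 0.07 in controls (SD, n = 3 each), a difference of 0.45 ± 0.07 (SE) or 1.37-fold with an adjusted p of 0.0482. The call was lost without 5 of the 6 arrays: leaving out control replicate 1, 2 or 3 gave adjusted p of 0.227, 0.219 and 0.202, and leaving out knockdown replicate 1 or 2 gave 0.232 and 0.136. Without knockdown replicate 3 it was 0.0255.

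Tcstv3, one of a group of genes known for transcripts at the 2-cell stage, rose as well. Probe set 10598146 read 6.18, 6.14 and 6.17 in knockdown arrays, against 5.81, 5.79 and 5.71 in controls. The knockdown arrays were tight, with an SD of 0.02, and the gap to the highest control was 0.33. The difference was 0.39 ± 0.06 (SE) or 1.31-fold, with an adjusted p of 0.0448. The row is dim, with 27.0% of all rows at a lower mean, and signal over background was not analysed here. This call too was lost without control replicate 1, 2 or 3 (adjusted p 0.195, 0.253 and 0.202) and without knockdown replicate 1 or 2 (0.228 and 0.113), but not without knockdown replicate 3 (0.0409). It was also lost with a trended and robust prior (adjusted p 0.0892), and the row drops out when the dimmest 1 in 3 rows are left out.

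Tmem92, which encodes a transmembrane protein, is a member of lists of genes raised in 2-cell-like cells. Its row, probe set 10390080, read 9.55, 9.70 and 9.69 in knockdown arrays, against 9.11, 9.25 and 9.26 in controls. Array 1 was the lowest in both groups. The difference was 0.44 ± 0.08 (SE) or 1.36-fold, with an adjusted p of 0.0575, which became 0.0233 with the replicate block. With each array left out in turn, without the block, it never passed (limma, adjusted p 0.063 to 0.262). With that block all 4 genes with a row of their own were called higher, with adjusted p of 0.0233 to 0.0306. Of the named genes, 1.07% were called higher and 2.01% lower in that fit. With the block and all rows tested, 0 of the 4 were called (limma, adjusted p 0.137 to 0.147). In that fit 0% of all rows were called higher.

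**Figure D2:**
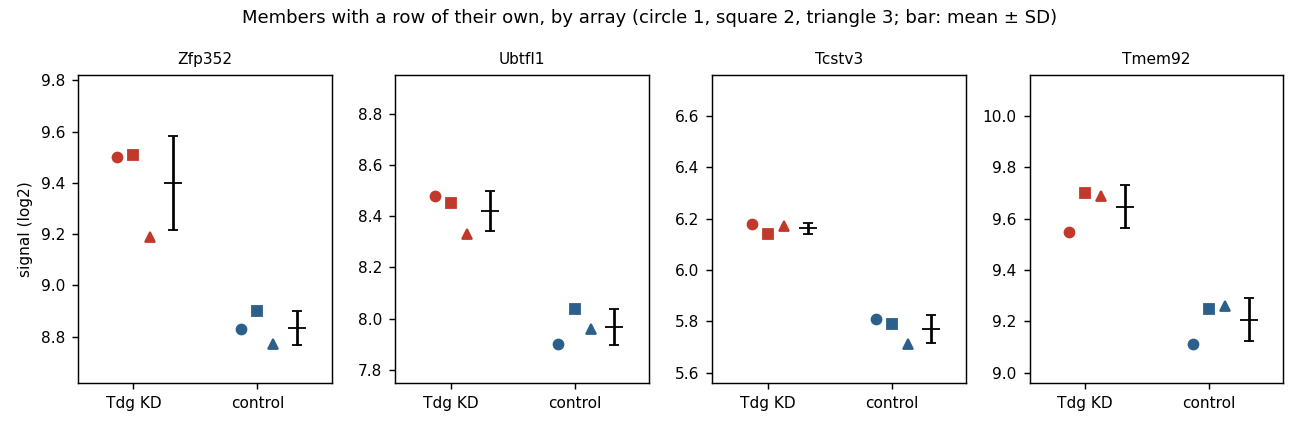
Log2 signal of Zfp352, Ubtfl1, Tcstv3 and Tmem92 by array, with Tdg knockdown (red) left of control (blue), circle, square and triangle for arrays 1, 2 and 3, and bars for the mean ± SD. All panels span 1.2 log2 units; the lowest knockdown array lies 0.29 to 0.33 above the highest control in each.

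Sp110, a nuclear body protein of the Sp100 family that is also induced by interferon, appears on 6 rows, each shared with at least 1 other gene. All 6 list Gm15753, a pseudogene in RefSeq, and some also list Sp140, C130026I21Rik, A530032D15Rik and the models LOC102638047, LOC101055672, LOC100041057 and LOC664787. Probe set 10356278 read 9.67, 9.70 and 9.58 in knockdown arrays, against 9.22, 9.17 and 9.20 in controls. Probe set 10534909 read 9.81, 9.92 and 9.77 in knockdown arrays, against 9.35, 9.38 and 9.39 in controls. On both rows the groups were well apart, by 0.36 and 0.38, and the controls were within 0.05 of each other. Their differences were 0.45 ± 0.06 and 0.46 ± 0.07 (SE), with adjusted p of 0.111 and 0.113 in the fit of all rows.

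Of the other Sp110 rows, probe sets 10347928 and 10582874 held the same 6 values and count as 1 measurement. They read 9.51, 9.47 and 9.18 in knockdown arrays, against 8.88, 8.74 and 8.85 in controls, a difference of 0.56 ± 0.11 (SE, adjusted p 0.177) that became 0.67 without knockdown replicate 3. Probe set 10582868 showed 0.35 ± 0.08 (adjusted p 0.221). Probe set 10356248, which lists 9 genes including Sp140, was the dimmest at 6.29 ± 0.02 in knockdown and 6.06 ± 0.11 in control cells (SD, n = 3 each), and differed by 0.23 ± 0.07 (SE, adjusted p 0.43). How the signal divides between Sp110 and its copies cannot be told from these rows.

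The set was compared with its relatives and with interferon response genes, since Sp110 belongs to both. Among 14 measured genes of the Sp100 family and the interferon response the median difference was 0.04, and 1 rose, the RNA sensor gene Ddx58 (0.43 ± 0.06, SE, adjusted p 0.0331). That call was lost without control replicate 1, 2 or 3 (adjusted p 0.174, 0.231 and 0.173) and without knockdown replicate 1 or 2 (0.184 and 0.0982). None fell, but with the replicate block Oasl2 (-0.41, adjusted p 0.0378) and Irf1 (-0.39, 0.0393) were called lower beside Ddx58. Without knockdown replicate 3 the list's median was -0.00333, and Oasl2 was called lower (-0.43, adjusted p 0.043). Sp100 differed by 0.06 ± 0.10 (adjusted p 0.851) and Sp140 by 0.10 ± 0.24 (adjusted p 0.9). Irf1 read 9.53, 9.64 and 9.46 in knockdown arrays, against 9.96, 9.90 and 9.93 in controls, so every knockdown array lay below every control.

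Taken over genes or families, the mean deviation from the control mean was 0.43, 0.44 and 0.36 in knockdown arrays 1, 2 and 3. The order of the 3 knockdown arrays was not the same for all. Array 3 was lowest for Zscan4, Zfp352, Ubtfl1 and Sp110 and highest for Duxf3. Duxf3 deviated by 0.33, 0.42 and 0.48 in knockdown arrays 1, 2 and 3, against -0.14, 0.07 and 0.07 in controls 1, 2 and 3. Zscan4 deviated by 0.24, 0.15 and 0.09 in knockdown arrays, against 0.05, 0.04 and -0.09 in controls. For Duxf3 array 1 was thus lowest in both groups, and for Zscan4 array 3 was.

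Whether the Zscan4 difference was smaller than those of the other genes was tested on the per-array differences between each gene and the Zscan4 mean. The difference exceeded that of Zscan4 by 0.41 for Zfp352, 0.29 for Ubtfl1, 0.28 for Sp110, 0.28 for Tmem92, 0.25 for Duxf3 and 0.23 for Tcstv3. In exact two-sided permutation tests p was 0.1 for Zfp352, Ubtfl1, Sp110 and Tcstv3 and 0.2 for Tmem92 and Duxf3, or 0.15 and 0.2 adjusted over the 6 comparisons. The smallest p that permuting 3 arrays against 3 allows is 0.1, so this test cannot pass 0.05. It does not use the replicate numbers. Within same-numbered pairs the difference from Zscan4 was positive in 3 of 3 pairs for each of the 6, such as 0.29, 0.24 and 0.24 for Duxf3 and 0.25, 0.34 and 0.25 for Tmem92. An exact test on the signs of 3 pairs cannot give a p below 0.25. Zscan4, the reference, had the smallest difference in these same arrays, which largely set the sign of the comparisons in advance. All 6 subtract the same Zscan4 values and are not separate results.

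**Figure D3:**
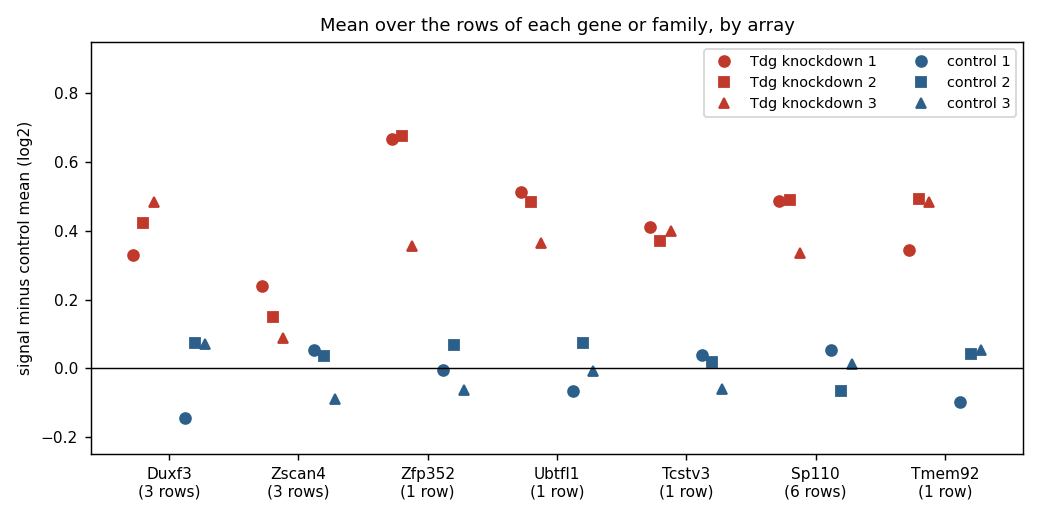
Deviation of each array from the control mean (log2), averaged over the rows of each gene or family, with Tdg knockdown arrays (red) left of controls (blue) and circle, square and triangle for arrays 1, 2 and 3. Knockdown array 3 is the highest for Duxf3 and the lowest for Zscan4, Zfp352, Ubtfl1 and Sp110.

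**Figure D4:**
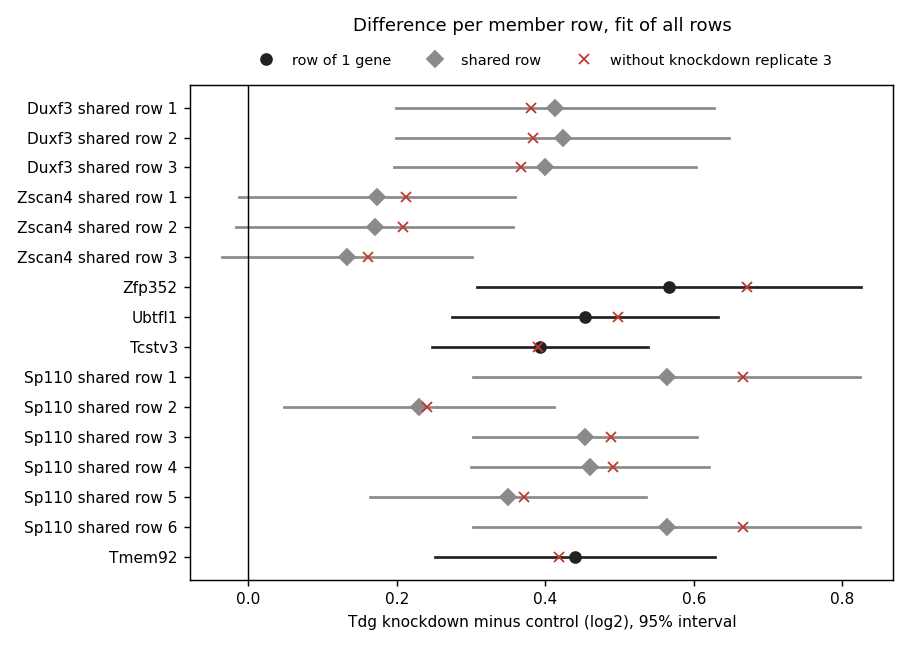
Tdg knockdown minus control (log2) for the 16 rows with 95% intervals from the fit of all rows; black circles are rows of 1 gene, grey diamonds are shared rows and red crosses leave out knockdown replicate 3. In this fit, without the replicate block, the intervals of the 3 Zscan4 rows include 0 and those of the other 13 do not.

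Other genes known from 2-cell-like cells were mostly above 0. These genes too were chosen with earlier results of these data known. Of 47 listed, 21 had a row of their own, and 15 of the rest are named on shared rows. The median difference of the 21 was 0.31, against 0.02 over all named genes, and 20 lay above 0, as did 55.5% of all named genes. Of the 21, 4 rose, none fell and 17 did not pass: Tdpoz3 (0.73 ± 0.10, log2, SE), Tdpoz2 (0.66 ± 0.10), Usp17lb (0.49 ± 0.07) and Usp17lc (0.43 ± 0.06), with adjusted p of 0.0318 to 0.0443. Tdpoz3 read 10.61, 10.55 and 10.29 in knockdown arrays, against 9.78, 9.81 and 9.68 in controls, and Usp17lc read 10.15, 10.11 and 10.10 in knockdown arrays, against 9.65, 9.73 and 9.70 in controls. The Tdpoz genes, of the speckle-type BTB protein family, and the Usp17l genes, which encode deubiquitinases, exist in similar copies, and how their signal divides is uncertain. All 4 called genes belong to these families. Similar copies are not separate measurements, which limits each count over the 21. The share called higher among all named genes was 0.241%. With the replicate block 9 of the 21 were called higher, against 1.07% of all named genes. The count was 0 without control replicate 1, 2 or 3 and without knockdown replicate 1 or 2, and 6 without knockdown replicate 3.

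Genes known to control the state were read as well, and none passed the test. Among 4 activators, Nelfa, a subunit of the negative elongation factor, differed by 0.16 ± 0.06 (adjusted p 0.346) and Dppa2 by 0.09 ± 0.08 (adjusted p 0.739), with a median of 0.07. Among 29 repressors the median was 0.00, and the smallest p were those of the histone deacetylase Hdac1 (0.19 ± 0.07) and the Polycomb-like protein gene L3mbtl2 (0.18 ± 0.06), both with an adjusted p of 0.3. None of the 33 was called by limma in either direction, and 4 (12.1%) had an unadjusted p under 0.05, against 12.5% of all named genes. Nelfa read 12.13, 12.18 and 12.09 in knockdown arrays, against 11.96, 12.01 and 11.96 in controls, so its groups did not overlap although the difference was not called.

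Markers of the cell types that the cultures could hold were read beside these genes. The 10 stem cell markers had array means of 12.27 to 12.34 in knockdown and 12.29 to 12.34 in control arrays, with Klf4 at 0.09 ± 0.06 (adjusted p 0.651) and Sox2 at -0.10 ± 0.07 (adjusted p 0.691). The 8 primitive endoderm markers averaged 7.13 to 7.33 in knockdown and 7.11 to 7.24 in control arrays, with Dab2 at -0.30 (adjusted p 0.196) and Foxa2 at 0.15 (adjusted p 0.46). The 8 trophoblast markers averaged 7.60 to 7.69 in knockdown and 7.58 to 7.68 in control arrays, with Krt7 at -0.19 (adjusted p 0.225) and Hand1 at 0.32 (adjusted p 0.311). The 8 fibroblast markers averaged 6.68 to 7.06 in knockdown and 6.68 to 6.90 in control arrays, with Lum at 0.12 (adjusted p 0.743) and Dcn at -0.10 (adjusted p 0.8). These lists overlapped between the groups.

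The 10 oocyte and germ cell genes averaged 7.48 to 7.55 in knockdown and 7.42 to 7.47 in control arrays. That separation was narrow, at 7.476 for the lowest knockdown and 7.471 for the highest control array. Without Zp3 the groups overlapped: the other 9 averaged 7.29 to 7.40 in knockdown and 7.33 to 7.38 in control arrays. Its 1 called gene was Zp3, of a zona pellucida glycoprotein, which read 9.0, 9.18 and 8.84 in knockdown arrays, against 8.17, 8.25 and 8.23 in controls (0.79 ± 0.09, SE, adjusted p 0.0262). That call too was lost without any 1 array other than knockdown replicate 3. The list's median difference was 0.06, and -0.01 without knockdown replicate 3, and its part in the rise of the 2-cell genes was not tested.

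**Figure D5:**
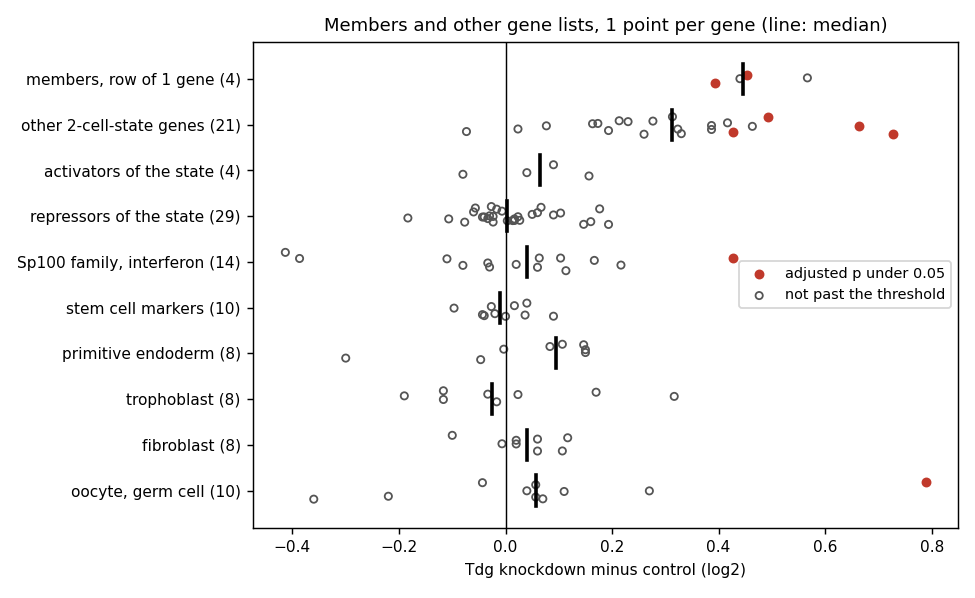
Tdg knockdown minus control (log2) for the 4 genes of the set with a row of their own, 21 other 2-cell-state genes, regulators of the state, interferon genes and cell type markers; each point is 1 gene, red where the adjusted p is under 0.05, and black lines are medians. The medians are 0.45 for the 4 genes and 0.31 for the 21, and the other lists lie between -0.03 and 0.10.

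The 4 genes with a row of their own ran close together over the 6 arrays: each correlated at 0.91 to 0.99 with the mean of the other 3. This is a description over 6 arrays that share 1 contrast between groups, and 524 of the 19938 named genes correlated at over 0.9 with the mean profile of the 4. Among protein genes with an established symbol, the 6 most like that profile were Myo1f, a class I myosin, the nuclear receptor gene Nr0b1, the DNA repair gene Faap24, the inflammasome sensor gene Nlrc4, Phlda2 and the chemokine gene Ccl3, with correlations of 0.997 to 0.998. Nlrc4 (0.95, adjusted p 0.0183), Ccl3 (0.63, 0.0263) and Myo1f (0.53, 0.0291) were called, while Faap24 (0.29, 0.0968) and Phlda2 (0.20, 0.205) were not. These calls too were lost without any 1 array other than knockdown replicate 3. Nr0b1, known in stem cells as Dax1, read 12.63, 12.69 and 12.59 in knockdown arrays, against 12.23, 12.30 and 12.25 in controls. The difference was 0.38 (adjusted p 0.052, or 0.0306 with the replicate block and 0.0358 without knockdown replicate 3). Without any other array the adjusted p of Nr0b1 was 0.135 to 0.253.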

How the data were processed

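RNA of 3 Tdg knockdown and 3 control samples of E14 mouse embryonic stem cells was measured on 1-colour Affymetrix arrays. The deposited table holds log2 signals, 1 per probe set and array, made by the authors. The submitters' processing notes name Affymetrix Expression Console. Its version, the summarisation and the normalization were not given in the sources used here. Array medians were 7.41 to 7.48, no further normalization was applied, and the number of arrays limits the precision.

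Gene symbols came from the platform annotation: 21789 probe sets list 1 gene, 1621 several and 12147 none. Symbols were updated from RefSeq where a probe set of 1 gene matched (21698), and others kept the platform symbol. Keeping for each gene its row with the highest mean left 19938 named genes. limma 3.58.1 (lmFit and eBayes, R 4.3.3) compared knockdown with control, two-sided, with Benjamini-Hochberg adjustment at 0.05 over the named genes, and over all 35557 rows for rows that list several genes. The scripts were tested on simulated data. Figures and sequences used Python 3.11.15, matplotlib 3.10.9 and Biopython 1.88.

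The main fits and their calls did not use the replicate numbers. These numbers entered only the alternative fit with a replicate block and the within-pair differences from Zscan4. They were treated there as pairs because the deviations of same-numbered arrays from their group means correlated at 0.61, 0.23 and 0.70, each over 0.1. The pairing comes from the data, not from a statement in the labels, and 5 of 6 arrays correlated best with their own number. Alternatives were the replicate block, quantile normalization, median centring, leaving out the dimmest 1 in 3 rows, a trended and robust prior, averaging all rows of a gene, adjustment over all rows, and leaving out each array.

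The genes and lists were chosen with earlier results of these data known. The text names all genes of the set and those sharing their rows, Tdg, the listed genes past the threshold (for a list without any, its 2 genes of smallest p), and the 6 genes with the most similar profile, without predicted models and small RNAs. Genes outside this rule (Oasl2, Irf1, Sp100, and those of the closing observations) were named after their values were seen.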

Additional observations from a re-analysis of the deposited data

How the results depend on the processing

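The 16 rows were refitted 182 times under the alternatives, and the difference stayed above 0 in all 182. That sign was mostly set in advance. Every knockdown array lay above every control array on these rows, so the 96 refits without 1 array could not reverse it. The replicate block, the prior, the row filter, the averaging and the adjustment leave the difference itself unchanged. Only quantile normalization and median centring could have altered the sign. The calls did vary. Of the 4 genes with a row of their own, 2 were called higher, which became 4 with the replicate block, 0 with median centring and 0 with all rows tested, and 0 to 3 when 1 array was left out. Of the shared rows, 0 were called, against 2 with the dimmest 1 in 3 rows left out and 1 with a trended and robust prior. Among all named genes 48 were called higher, against 214 with the replicate block, 29 with median centring, 107 with the dimmest rows left out, 140 with the trended prior, 2 with all rows tested and 0 to 131 with 1 array left out. The 110 called lower became 400, 244 and 306 with the replicate block, the dimmest rows left out and the trended prior, 10 with all rows tested, and 0 to 159 with 1 array left out. Of other 2-cell-state genes 4 were called higher, against 9 with the replicate block, 2 with median centring, 0 with all rows tested and 0 to 6 with 1 array left out. The 1 called cell type marker became 0 with all rows tested and 0 to 1 with 1 array left out. The cause of these changes was not tested. The replicate block changed the calls of Zfp352, Tmem92, Oasl2, Irf1, Nr0b1 and 5 further 2-cell-state genes, and no other call among the genes of the set, the listed genes and the 6 genes of similar profile. With the dimmest rows left out and with the trended prior, the calls of Zfp352 and Tmem92 were gained, while Tcstv3 was not tested in the first and lost in the second. Signal over background was not analysed here.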

Other observations

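Among the other 2-cell-state genes, 5 were called higher with the replicate block but not in the main fit: Pramel17 (difference 0.42, adjusted p 0.0305 with the block), Arg2 (0.39, 0.0443), Abcb5 (0.46, 0.0223), Tdpoz1 (0.33, 0.0381) and Pramel6 (0.39, 0.0493). Pramel6 and Pramel17 belong to a leucine-rich repeat family transcribed in early embryos and germ cells, Arg2 encodes a mitochondrial arginase and Abcb5 a membrane transporter. Patl2, an RNA-binding protein gene of oocytes, was the 1 gene of the 21 below 0, at -0.07.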
